A study of Mus musculus with 2 samples.

Results

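The 10 genes described here encode myosin light chains and the kinases that phosphorylate them. Mylpf and Myl1 are the fast sarcomeric chains, Myl2 and Myl3 the slow and cardiac chains, and Myl4 the embryonic and atrial chain. Myl6 and Myl12b are non-muscle chains, Myl6b is a further essential chain, and Mylk2 and Mylk4 are the kinases. These 10 genes were taken by gene name from the annotated genes in the deposited counts of both libraries. They are 10 of the 14434 annotated genes that held a read in either library. All 10 were read in replicate 1 and 9 in replicate 2. Of the reads given to annotated genes, they took 1.91% in replicate 1 and 1.35% in replicate 2.

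Each myosin head carries an essential and a regulatory light chain, wrapped around the lever arm of the heavy chain. In skeletal muscle the kinase Mylk2, switched on by calcium and calmodulin, phosphorylates a serine near the start of the regulatory chain, which makes contraction more sensitive to calcium and is known for the potentiation of twitches in fast muscle. Myl1 makes a long and a short essential chain from separate promoters, known as MLC1f and MLC3f, while Myl3 and Myl2 serve slow fibres and the ventricle of the heart.

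The series holds 2 long-read RNA libraries of gastrocnemius, the large calf muscle, from female adult B6CASTF1/J mice of 18 to 20 months, and no treatment or second group. They are biological replicates 1 and 2 per the labels, each from 2 µg of total RNA, with the same donor record. The labels do not say how many animals were used, so a p-value here sets 1 library against the other, and what it measures may be technical. Below, each ratio is replicate 1 over replicate 2.

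Reads on annotated genes numbered 1117891 for replicate 1 and 975696 for replicate 2. Levels are counts scaled to 1000000 of these reads (CPM), where 1 read stands for 1 molecule, and a gene without reads could have reached 2.68 CPM in replicate 1 and 3.07 CPM in replicate 2. The tissue label was checked against fibre markers: the 7 skeletal fibre genes summed to 320072 CPM in replicate 1 and 335546 CPM in replicate 2. Heart markers summed to 0.895 CPM and 5.12 CPM, and the defining heart genes Nppa, Nppb, Tnni3, Myl7 and Ryr2 had 0 reads in both. The 5 slow fibre markers differed between the libraries, with 556 CPM in replicate 1 and 4548 CPM in replicate 2. All 5 were called lower in replicate 1 by the exact binomial test described below, which called 7.13% of all genes lower. In the edgeR exact test, also described below, Myh7, Tnnc1, Tnnt1 and Atp2a2 were called. Tnni1 was not (adjusted p = 0.142, edgeR exact test). Of the other cell types the tissue could hold, the smooth muscle list had 6 genes tested and the endothelial list 4, with none called; fibroblast genes had 1 higher and 3 lower in replicate 1 of 5 tested. Among macrophage genes Lyz2 was called, with 43 reads in replicate 1 and 7 in replicate 2, while Cd68 was at 0 in both. These calls are by the exact binomial test, which called 4.46% of all genes higher in replicate 1. In the edgeR exact test the calls of the fibroblast genes and of Lyz2 were lost. Transcript length also moved with the libraries: the median log2 ratio was 0.36 over 873 tested genes whose leading transcript was under 1000 nt, and -0.32 over 3615 genes of 3000 nt or more.

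The kinase acts on the start of the regulatory light chains, so the first 75 coding bases of the 3 regulatory genes are shown from GENCODE M21, with the codon of the phosphorylated serine in capitals.
Mylpf: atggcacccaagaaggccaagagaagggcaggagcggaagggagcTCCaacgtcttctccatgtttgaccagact
Myl2: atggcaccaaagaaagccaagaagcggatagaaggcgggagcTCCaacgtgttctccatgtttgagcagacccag
Myl12b: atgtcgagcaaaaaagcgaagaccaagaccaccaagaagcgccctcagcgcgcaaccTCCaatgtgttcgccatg
The codon was TCC in all 3 genes, at codon 16 of Mylpf, 15 of Myl2 and 20 of Myl12b. On mm10, Mylpf (ENSMUSG00000030672) lies at chr7:127208890-127214298 and Myl2 (ENSMUSG00000013936) at chr5:122100951-122113472, both on the plus strand, and Myl12b (ENSMUSG00000034868) at chr17:70973133-70990890 on the minus strand. Another annotated gene with the name Myl12b (ENSMUSG00000117098, chr17:70974119-71002208) overlaps it on the same strand, and counts by gene name do not separate them. Over their whole coding parts, Mylpf and Myl2 were identical at 70.3% of aligned bases, and Mylpf and Myl12b at 65.5%. The kinases Mylk2 and Mylk4 (Mylk4-201) were identical at 71.6% of aligned coding bases.

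The essential chain Myl1 (ENSMUSG00000061816) lies at chr1:66924295-66945404 on the minus strand, and its 2 forms differ only at their start. The coding part of the first exon of the long form (Myl1-201, chr1:66944792-66944905, minus strand, mm10) has 114 bases, rich in codons for alanine and proline.
Myl1-201 exon 1: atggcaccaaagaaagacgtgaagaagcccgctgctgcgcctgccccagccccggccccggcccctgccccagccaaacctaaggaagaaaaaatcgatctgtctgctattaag
The long form continues with an exon of 28 bases (chr1:66934246-66934273), whereas the first exon of the short form (Myl1-202) gives only the start codon and is followed by an exon of 25 bases (chr1:66934518-66934542).
28-base exon: atcgagttctctaaggagcaacaggagg
25-base exon: tccttcagtgctgaccagattgccg
Both forms then share 5 exons. The long form has 188 codons and the short form 150, and both end with the same exons. The other essential chains are Myl3 (ENSMUSG00000059741) at chr9:110741861-110769798 and Myl4 (ENSMUSG00000061086) at chr11:104550663-104595753 on the plus strand, with Myl6 (ENSMUSG00000090841) at chr10:128490860-128494145 and Myl6b (ENSMUSG00000039824) at chr10:128494157-128498685 on the minus strand. The long form of Myl1 and Myl3 were identical at 71.6% of aligned coding bases, Myl3 and Myl4 at 78.1%, and Myl6-206 and Myl6b at 80.1%.

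Fast light chains made up nearly all light chain reads. Mylpf, the fast regulatory chain, had 11235 reads in replicate 1 and 6230 in replicate 2, or 10050 CPM and 6385 CPM (8218 ± 2592, SD, n = 2). Myl1, the fast essential chain, had 9569 reads in replicate 1 and 6330 in replicate 2, or 8560 CPM and 6488 CPM (7524 ± 1465, SD, n = 2). Mylpf ranked 10 and Myl1 ranked 12 by mean CPM among all annotated genes. Mylpf took 53.5% of reads of the 8 light chain genes in replicate 1 (Wilson 95% interval 52.8 to 54.1) and 48.2% in replicate 2 (47.3 to 49.1). Myl1 took 45.5% in replicate 1 (44.9 to 46.2) and 49.0% in replicate 2 (48.1 to 49.8). The number of Mylpf reads per Myl1 read was thus 1.17 in replicate 1 and 0.984 in replicate 2. The order of these 2 genes therefore depended on the library.

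The slow chains were far lower and differed most between the libraries. Myl3, the slow and ventricular essential chain, had 74 reads in replicate 1 and 223 in replicate 2, or 66.2 CPM and 229 CPM. Myl2, the slow and ventricular regulatory chain, had 21 reads in replicate 1 and 92 in replicate 2, or 18.8 CPM and 94.3 CPM. Both were lower in replicate 1, by more than any other member. Myl3 made up 0.767% of Myl1 and Myl3 reads in replicate 1 (0.612 to 0.962) and 3.40% in replicate 2 (2.99 to 3.87). Myl2 made up 0.187% of Mylpf and Myl2 reads in replicate 1 (0.122 to 0.285) and 1.46% in replicate 2 (1.19 to 1.78). Neither pair of intervals overlapped, and these shares need no scaling between libraries. The intervals cover counting error only, however. A gene test that knows only this error called 66.1% of all genes with 1000 or more reads, as given below. How often the shares of other gene pairs differ between these libraries was not tested. Within the slow pair the split was closer: Myl2 was 22.1% of Myl2 and Myl3 reads in replicate 1 (14.9 to 31.4) and 29.2% in replicate 2 (24.5 to 34.5). These intervals overlapped.

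Myl4, known from embryonic muscle and the atria, had 20 reads in replicate 1 and 6 in replicate 2, or 17.9 CPM and 6.15 CPM. The non-muscle essential chain Myl6 had 85 reads in replicate 1 and 37 in replicate 2, or 76.0 CPM and 37.9 CPM. Myl12b, a non-muscle regulatory chain, had 13 reads in replicate 1 and 7 in replicate 2, or 11.6 CPM and 7.17 CPM. Myl6b, the neighbour of Myl6 on chromosome 10, had 1 read in replicate 1 and 0 in replicate 2, so its level was at or under the limit that a count of 0 allows. Myl6, Myl6b and Myl12b together were 0.471% of light chain reads in replicate 1 (0.387 to 0.573) and 0.340% in replicate 2 (0.254 to 0.457). In whole tissue, fewer cells of a type and less RNA per cell cannot be told apart. Myl12b is 96.5% identical to its neighbour Myl12a over the coding part, so the split of reads between these copies is uncertain.

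**Figure D1:**
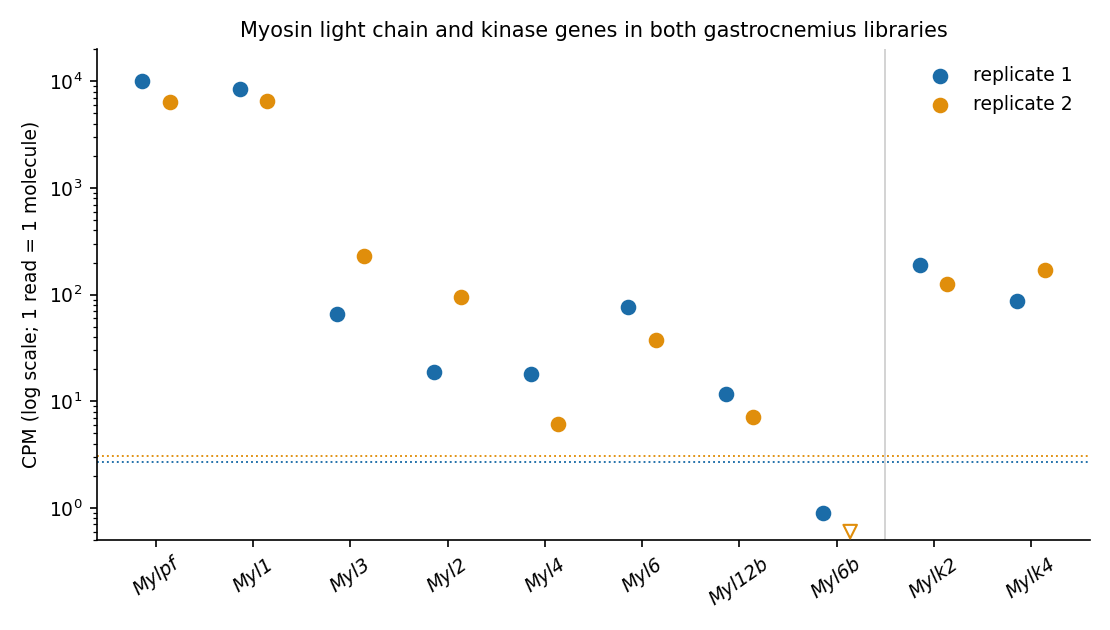
CPM of each member gene (vertical axis, log scale) in replicate 1 (left point of each pair) and replicate 2 (right point), light chains left of the grey line and kinases right of it. Dotted lines mark the levels that a count of 0 allows, 2.68 and 3.07 CPM, and the open triangle marks 0 reads of Myl6b in replicate 2; Myl2 and Myl3 are lower in replicate 1, and Mylpf and Myl1 exceed all other members in both.

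Both kinases were read at CPM levels near that of Myl3. Mylk2 (ENSMUSG00000027470, chr2:152911352-152923068, plus strand), the skeletal muscle light chain kinase, had 213 reads in replicate 1 and 122 in replicate 2, or 191 CPM and 125 CPM (158 ± 46.3, SD, n = 2). Mylk4 (ENSMUSG00000044951, chr13:32700834-32783954, minus strand), a kinase of the same family studied mainly in the heart, had 97 reads in replicate 1 and 166 in replicate 2, or 86.8 CPM and 170 CPM (128 ± 58.9, SD, n = 2). Mylk4 was the less abundant kinase in replicate 1 and the more abundant one in replicate 2. That order in replicate 2 rested on truncated and single-exon reads. Spliced Known, NIC and NNC models, described below, held 48 Mylk4 and 145 Mylk2 reads in replicate 1, and 75 Mylk4 and 89 Mylk2 reads in replicate 2. On these models alone the mean level was 59.9 CPM for Mylk4 and 110 CPM for Mylk2. With all models, Mylk4 made up 31.3% of the reads of both kinases in replicate 1 (26.4 to 36.7) and 57.6% in replicate 2 (51.9 to 63.2). Replicate 1 held 52.7 Mylpf reads per Mylk2 read, and replicate 2 held 51.1.

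Divided by the length of the leading transcript, the order of mean levels was Mylpf (10728 CPM per kb), Myl1 (9370), Myl3 (157), Myl6 (85.7), Myl2 (85.4), Mylk2 (53.5), Mylk4 (19.6), Myl4 (12.7), Myl12b (4.39) and Myl6b (0.436). Mylpf had 13120 CPM per kb in replicate 1 and 8336 in replicate 2, and its neighbour Myl1 had 10660 and 8079. On this scale Mylpf lay above Myl1 within each library, while the ranges of the 2 genes over both libraries overlapped. In CPM, where 1 read stands for 1 molecule, Mylpf had 6385 and Myl1 had 6488 in replicate 2. Division by length lowers long transcripts against short ones, and CPM is the level used elsewhere here. Myl3 (70.6 and 244) overlapped with Myl6 (114 and 57.0), Myl6 with Myl2 (28.4 and 142), and Myl2 with Mylk2 (64.6 and 42.4). Mylk4 (13.2 and 25.9) lay below Mylk2 in both libraries but overlapped with Myl4 (19.0 and 6.52). Myl12b (5.43 and 3.35) lay below all of these. Without division by length, both kinases moved above Myl6 and Myl2, and Mylk2 moved above Myl3 by mean CPM. The order of Mylk2 and Myl3 depended on the library, with 191 and 66.2 CPM in replicate 1 but 125 and 229 CPM in replicate 2.

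Compared between libraries by a 2-sided exact binomial test on counts scaled by the trimmed mean of M values (TMM), with Benjamini-Hochberg adjustment over 8391 genes, 7 of the 9 members tested were called at an adjusted p under 0.05. Of all genes tested 11.6% were called. The share rose with depth, from 4.57% of genes with 10 to 99 reads over both libraries, such as Myl4 and Myl12b, through 26.4% of those with 100 up to 1000, to 66.1% of those with 1000 or more, such as Mylpf and Myl1. In replicate 1, 4 members were called higher, against 4.46% of all genes, and 3 lower, against 7.13%. The median log2 ratio of the 9 members was 0.48, and that of all tested genes was -0.01. This test knows counting error only. When the scatter between the libraries was added through a common dispersion (edgeR exact test), Myl2 was the only member called, 2 members had an unadjusted p under 0.05, and 0.286% of all genes were called. Scaling by total counts in place of TMM kept the 7 calls, but over all genes moved the share of calls higher in replicate 1 to 56.5%, against 38.5% with TMM.

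The largest differences were in the slow chains. Myl2 was lower in replicate 1, with a log2 ratio of -2.45 and a fold of 0.183 (exact 95% interval 0.108 to 0.296). Its adjusted p was 8.14e-14 by the exact binomial test and 0.0376 by the edgeR exact test. Myl3 was lower in replicate 1 as well, with a log2 ratio of -1.91 and a fold of 0.266 (0.202 to 0.347). Its adjusted p was 1.96e-24 by the exact binomial test and 0.161 by the edgeR exact test. Both have short transcripts of 662 and 937 nt, a class of genes whose median ratio was above 0. Slow fibre markers as a group were lower in replicate 1 too, as given above, and their part in these differences was not tested. Myl2 and Myl3 differed by less than Myh7, the slow heavy chain, which had 183 reads in replicate 1 and 2330 in replicate 2.

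The fast chains were higher in replicate 1 by small folds. Mylpf had a log2 ratio of 0.53 and a fold of 1.44 (1.40 to 1.49), with an adjusted p of 1.21e-120 by the exact binomial test. Myl1 had a log2 ratio of 0.28 and a fold of 1.21 (1.17 to 1.25), with an adjusted p of 3.29e-30 by the same exact test. Both adjusted p-values were 1 in the edgeR exact test. The transcripts of both are under 1000 nt, and the median ratio of that length class, 0.36, lay between the ratios of the 2 genes. The part of length in these differences was not tested.

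Among the other members, Mylk4 was lower in replicate 1 with a log2 ratio of -1.10 and a fold of 0.468 (0.361 to 0.605; adjusted p = 7.72e-08, exact binomial test). Its leading transcript has 6570 nt, and the median log2 ratio of genes of 3000 nt or more was -0.32. Mylk2 (2951 nt) was higher in replicate 1 with a log2 ratio of 0.48 and a fold of 1.40 (1.11 to 1.76; adjusted p = 0.0294, exact binomial test). With Known, NIC and NNC models only, classes described below that leave out most truncated and single-exon reads, its log2 ratio was 0.41 and the call was lost (adjusted p = 0.193, exact binomial test). With Known models only, the log2 ratio was 0.63 and the call held (adjusted p = 0.0289, exact binomial test). Myl6 was higher in replicate 1 with a log2 ratio of 0.88 and a fold of 1.84 (1.24 to 2.79; adjusted p = 0.0202, exact binomial test). Of the cell types listed besides muscle fibres and heart, endothelial markers summed to 59.0 CPM in replicate 1 and 37.9 CPM in replicate 2. Macrophage markers summed to 45.6 CPM and 13.3 CPM. Smooth muscle markers summed to 3855 CPM and 3521 CPM, of which Des alone had 3669 CPM and 3356 CPM. Fibroblast markers summed to 325 CPM and 451 CPM, with 1 gene called higher in replicate 1 and 3 lower by the exact binomial test only. The part of these cell types in the Myl6 ratio was not tested. Myl4 was not called, with a fold of 2.67 (1.03 to 8.13; adjusted p = 0.159, exact binomial test). Myl12b was not called either, with a fold of 1.49 (0.552 to 4.40; adjusted p = 0.799, exact binomial test). For these last 2, the depth of 26 reads and 20 reads over both libraries left intervals several-fold wide.

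**Figure D2:**
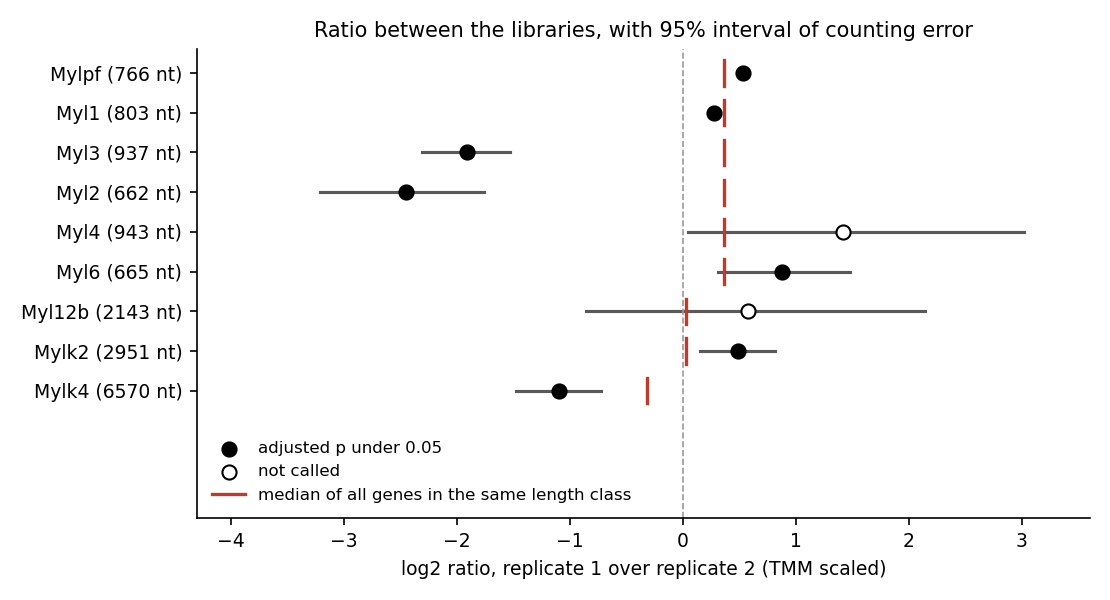
Log2 ratio of replicate 1 over replicate 2 (horizontal axis) for the 9 members tested, with the length of the leading transcript beside each name. Points are the ratios, bars the exact 95% intervals of counting error, filled points the calls at an adjusted p under 0.05 and red ticks the median of all tested genes in the same length class; Myl2, Myl3 and Mylk4 lie below 0 and the other members above it.

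The reads of most members matched annotated transcripts. Models are classed as Known, as incomplete splice match (ISM, a part of a known chain of introns), as NIC (annotated splice sites in a new combination), as NNC (with a new splice site) or as Genomic (unspliced or partly unspliced). Known models held 94.7% of Mylpf reads in replicate 1 and 94.7% in replicate 2. They held 81.7% of Myl1 reads in replicate 1 and 82.4% in replicate 2, against 63.6% and 59.3% of the reads of all annotated genes. For Mylk2 the share was 65.3% in replicate 1 and 58.2% in replicate 2. Mylk4 had no Known read: NIC models held 42.3% of its reads in replicate 1 and 41.6% in replicate 2, and Genomic models held 43.3% and 45.8%.

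**Figure D3:**
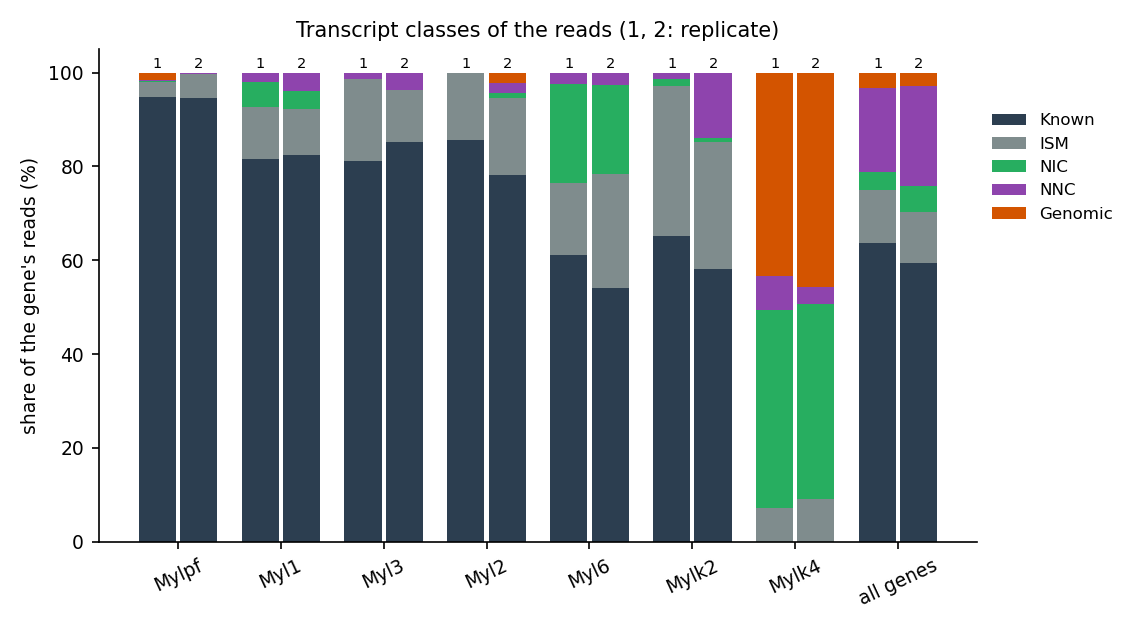
Share of each gene's reads in 5 classes of transcript model (vertical axis, percent), with replicate 1 left and replicate 2 right of each pair, for the 7 members with 100 reads or more over both libraries and for all annotated genes. Known models hold most reads of each member shown except Mylk4, which has none.

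How far reads reached toward the 5′ end differed between the members. The first intron was held by 94.8% of Mylpf reads in replicate 1 (94.4 to 95.2) and 94.7% in replicate 2 (94.1 to 95.2). In Mylk2 the first intron was held by 67.6% in replicate 1 (61.1 to 73.5) and 69.7% in replicate 2 (61.0 to 77.1). For Mylk4 it was held by 45.4% in replicate 1 (35.8 to 55.3) and 45.2% in replicate 2 (37.8 to 52.8). In each of these 3 genes the intervals of the libraries overlapped. Over all members 269 different chains were seen, of which 106 were in both libraries and 132 rested on 1 read. The 106 shared chains held 99.5% of member reads in replicate 1 and 99.2% in replicate 2.

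Mylpf was read almost entirely as 1 transcript. Mylpf-201, of 7 exons, held 99.4% of 10680 Known, NIC and NNC reads in replicate 1 (99.3 to 99.6) and 99.5% of 5916 in replicate 2 (99.3 to 99.7). Over all genes tested the median share of the leading isoform was 89.8%. The remaining Mylpf reads were mostly truncated: single-exon models at the 3′ end, classed as Genomic in replicate 1 and as ISM in replicate 2, had 180 and 106 reads, and a 4-exon part had 153 and 56. The annotated 2-exon transcript Mylpf-203 had 23 reads in replicate 1 and 11 in replicate 2. An NNC chain with 2 new splice sites had 2 reads in replicate 1 and 3 in replicate 2. The Mylpf-201 model began at the RefSeq start of the gene, so the 250 bases before it (RefSeq, GRCm38.p6, chr7:127211358-127211607, plus strand) are shown, with matches to CANNTG, the E-box of muscle transcription factors, in capitals.
Mylpf upstream: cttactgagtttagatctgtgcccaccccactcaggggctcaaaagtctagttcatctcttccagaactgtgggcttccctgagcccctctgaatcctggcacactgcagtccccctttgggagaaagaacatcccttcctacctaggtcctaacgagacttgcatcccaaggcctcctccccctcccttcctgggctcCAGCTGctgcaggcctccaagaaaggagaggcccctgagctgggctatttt
The window held 1 match to CANNTG, which reads the same on both strands, and none to TATAAA on either strand. Of 32851 RefSeq windows of this length 66.2% held CANNTG and 12.4% held TATAAA. The match here reads CAGCTG, which 13.0% of the windows held.

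Myl1 was read from both of its promoters in both libraries, most often as the short form. The first intron of the short form was in 6835 of 8298 reads with an annotated first intron in replicate 1, or 82.4% (81.5 to 83.2), and in 4615 of 5553 in replicate 2, or 83.1% (82.1 to 84.1). The difference, -0.74 percentage points, was not called (adjusted p = 1, Fisher's exact test over 856 genes, of which 0.935% were called). The first intron of the long form was in 1463 reads in replicate 1 and 937 in replicate 2. The first intron of Myl1-207 had 0 reads in replicate 1 and 1 in replicate 2. Counted by first exon, the short form had 6250 CPM in replicate 1 and 4830 CPM in replicate 2, and the long form 1299 CPM and 950 CPM. That is 4.81 short reads per long read in replicate 1 and 5.08 in replicate 2 (4.95 ± 0.19, SD, n = 2). Both forms had higher CPM in replicate 1, with no call for a difference in their split.

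By full chains, Myl1-202 held 6396 reads in replicate 1 and 4312 in replicate 2, while Myl1-201 held 1417 and 901. Myl1-202 made up 75.2% of Known, NIC and NNC reads in replicate 1 (74.3 to 76.1) and 75.5% in replicate 2 (74.4 to 76.6). The difference was not called (adjusted p = 1, Fisher's exact test over 3522 genes, of which 0.426% were called). The annotated Myl1-203 had 2 reads in replicate 1 and 5 in replicate 2. Truncated 4-exon models had 441 reads in replicate 1 and 246 in replicate 2.

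The exons of 25 and 28 bases followed the promoter closely but not without exception. Of the reads that began in the first exon of the long form with its annotated 3′ boundary, 1451 of 1452 in replicate 1 and 927 of 927 in replicate 2 held the 28-base exon alone. These counts leave out reads in which that exon was longer at its 3′ end. Its intron then ran to the first shared exon (chr1:66930330-66944778) and skipped the 28-base exon, in 6 reads in replicate 1 and 8 in replicate 2. Of those that began in the first exon of the short form, 93.7% in replicate 1 (93.1 to 94.2) and 94.0% in replicate 2 (93.3 to 94.7) held the 25-base exon alone. Both exons together were in 288 such reads in replicate 1, or 4.12% (3.68 to 4.61), and in 182 in replicate 2, or 3.86% (3.35 to 4.45). Reads of the short form with the 28-base exon alone numbered 2 in replicate 1 and 1 in replicate 2. Over all starts, the 28-base exon was in 20.1% of spanning reads in replicate 1 and 19.2% in replicate 2; for the 25-base exon the shares were 81.1% and 81.7%. Neither difference was called (adjusted p = 1 each, Fisher's exact test over 5437 annotated exons, of which 0.331% were called).

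The reads with both exons formed the most abundant NIC or NNC chain of Myl1, an NIC chain with 279 reads in replicate 1 and 177 in replicate 2. All its introns are annotated, and Myl1-204, an annotated transcript without a coding part and with another 3′ end, holds both exons. The coding starts of the 3 chains are shown from the start codon of the short form, or from the last 12 bases of exon 1 of the long form, up to the first 12 bases of the first shared exon, with an in-frame stop codon in capitals.
Short form: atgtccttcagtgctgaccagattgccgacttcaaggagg
Long form: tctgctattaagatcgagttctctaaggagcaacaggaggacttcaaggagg
Both exons: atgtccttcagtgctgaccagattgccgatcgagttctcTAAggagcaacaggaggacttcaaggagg
With both exons, the frame from the start codon of the short form ended after 13 codons, inside the 28-base exon and 453 bases before the last exon junction. The longest open frame from any ATG of that chain had 92 codons, against 150 in the short form.

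**Figure D4:**
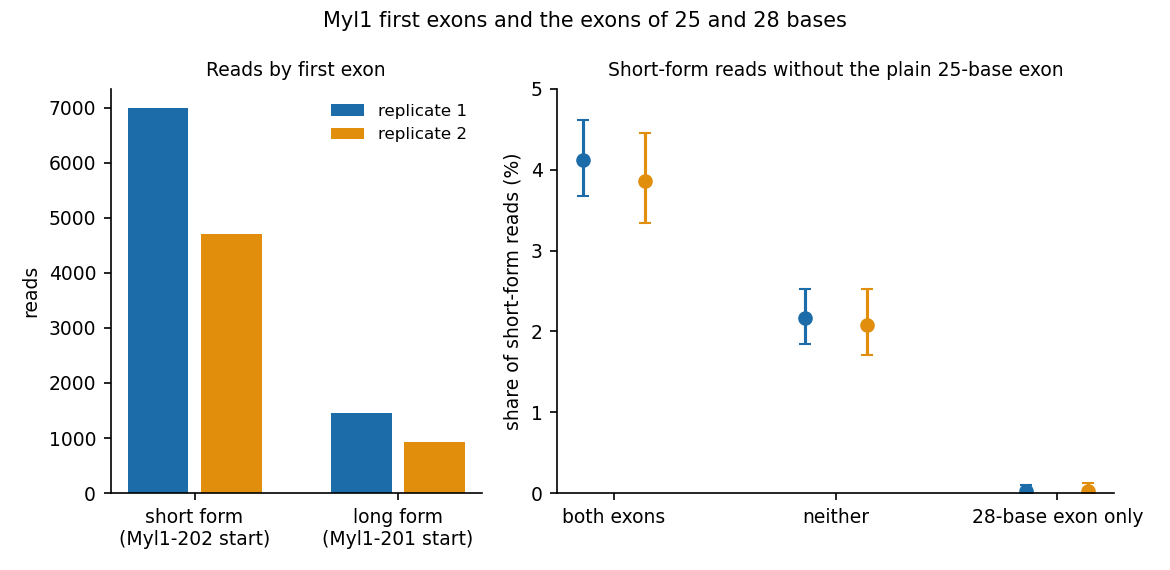
Left, Myl1 reads (vertical axis) that began in the first exon of the short or the long form, replicate 1 left and replicate 2 right. Right, share of short-form reads (percent) that held both short exons, neither or the 28-base exon alone, with Wilson 95% intervals; shares in both libraries overlap, near 4.12% and 3.86% for both exons.

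Other Myl1 chains carried new splice sites that recurred in both libraries. In all, 15 introns of Myl1 without annotation held 5 reads or more over both libraries, and all 15 were in both, out of 20 such introns over the 10 members. The most used (chr1:66924558-66924996) lengthened the penultimate exon by 26 bases and was in 121 reads in replicate 1 and 86 in replicate 2. The next ran from the short form's first exon to a site 37 bases before the first shared exon (chr1:66930367-66935275), skipping the 25-base exon, and had 111 reads in replicate 1 and 78 in replicate 2. The added 37 bases are 12 more than the exon they stood in for, which leaves the reading frame of the downstream exons in register. The letters of these bases, which may hold a stop codon, were not read here. A first exon at chr1:66937443-66937464, between the 2 promoters, gave 41 reads in replicate 1 and 42 in replicate 2. Sites 2 and 3 bases inside annotated exons were used by 43 and 22 reads in replicate 1, and by 32 and 24 in replicate 2. Each of these introns stayed at or below 1.36% of Myl1 reads in either library.

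The slow chains were read as single transcripts. Myl3-201 held 60 reads in replicate 1 and 190 in replicate 2, which was 98.4% of Known, NIC and NNC reads (91.3 to 99.7) and 96.0% (92.2 to 97.9). Myl2-201 held 17 reads in replicate 1 and 69 in replicate 2, whereas the annotated 5-exon transcripts Myl2-210 and Myl2-204 held 1 and 0 in replicate 1, but 2 and 1 in replicate 2. Of the 20 Myl4 reads in replicate 1, 12 were a 4-exon 3′ part, which had 1 read in replicate 2. The full transcripts Myl4-203 and Myl4-202, from different first exons, had 3 and 2 reads in replicate 1, and 3 and 2 in replicate 2. Myl12b-201 held 11 reads in replicate 1 and 5 in replicate 2. The single Myl6b read was Myl6b-201.

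Myl6 had the lowest share of a leading transcript among the 6 members with enough reads for that test. An exon of 45 bases near its 3′ end (chr10:128491720-128491764, minus strand) carries another coding end and its own stop codon. The coding ends with their stop codon in capitals are shown for the form with that exon (Myl6-206) and the form without it (Myl6-201).
Myl6-206: catttgtgaggcatatcctgtcggggTGA
Myl6-201: agcttgtccggatggtgctgaatggcTGA
Both forms have 151 codons, and 5 of them, from codon 143 on, code for another amino acid. The 45-base exon was in 31 of 72 spanning reads in replicate 1, or 43.1% (32.3 to 54.6), and in 14 of 34 in replicate 2, or 41.2% (26.4 to 57.8). The difference of 1.88 percentage points was not called (adjusted p = 1, Fisher's exact test). Over all exons tested the median inclusion was 98.4%.

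A second variable exon of Myl6 has 20 bases (chr10:128493334-128493353) and is annotated in 1 transcript, Myl6-210.
20-base exon: atctgagccccaagcgctgg
It was in 19 of 62 spanning reads in replicate 1, or 30.6% (20.6 to 43.0), and in 6 of 23 in replicate 2, or 26.1% (12.5 to 46.5). Added to Myl6-201 or to Myl6-206, it left 41 codons from the annotated start before a stop. Both variable exons were together in 11 reads in replicate 1 and 4 in replicate 2, and neither was in 25 and 13. Of full chains, Myl6-201 had 24 reads in replicate 1 and 13 in replicate 2, while Myl6-206 had 18 and 4. Myl6-201 was 33.3% of Known, NIC and NNC reads in replicate 1 (23.5 to 44.8) and 46.4% in replicate 2 (29.5 to 64.2), which was not called (adjusted p = 1, Fisher's exact test). An unspliced model annotated as Known had 10 reads in replicate 1 and 3 in replicate 2. NIC chains with the 20-base exon joined to the next exon had 8 and 3 reads in replicate 1, and 1 and 2 in replicate 2.

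Mylk2 has 1 annotated transcript, and it was the leading one. Mylk2-201, of 12 exons and 613 codons, held 139 of 145 Known, NIC and NNC reads in replicate 1, or 95.9% (91.3 to 98.1), and 71 of 89 in replicate 2, or 79.8% (70.3 to 86.8). The share was higher in replicate 1 by 16.1 percentage points (adjusted p = 0.0485, Fisher's exact test). The call was lost when the read minimum was 10 (adjusted p = 0.0668) or when a chain classed as ISM in 1 library was counted in both (0.0561). The other reads in replicate 2 were mainly NNC, with 17 reads there and 3 in replicate 1. In 7 of them, and in 1 read of replicate 1, an intron of 122 bases was taken out of the first exon (chr2:152911378-152911499). In 5, and in no read of replicate 1, the first exon was 244 bases longer at its 3′ end.

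Mylk4 was read as a transcript longer than its annotated coding form. The leading chain, with 15 exons and 6570 nt, held 41 reads in replicate 1 and 67 in replicate 2, or 85.4% (72.8 to 92.8) and 89.3% (80.3 to 94.5) of Known, NIC and NNC reads. The difference was not called (adjusted p = 1, Fisher's exact test). The chain begins with the first exon of Mylk4-202, holds 2 exons of 421 bases (chr13:32728335-32728755) and 290 bases (chr13:32726843-32727132) that are annotated only in Mylk4-204, whose 3′ end is incomplete, and ends like Mylk4-201. All spanning reads held these exons, 49 of 49 in replicate 1 and 78 of 78 in replicate 2 for the longer one, and 48 of 48 and 77 of 77 for the shorter. The junctions that set the chain apart are shown with the downstream exon in capitals, followed by the junction of Mylk4-201 that skips both.
Exon 3 to exon 4: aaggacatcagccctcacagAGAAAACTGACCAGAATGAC
Exon 4 to exon 5: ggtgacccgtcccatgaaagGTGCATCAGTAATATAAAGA
Exon 5 to exon 6: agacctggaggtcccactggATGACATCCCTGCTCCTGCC
Exon 3 to exon 6: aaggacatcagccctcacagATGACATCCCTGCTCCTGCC
Together the 2 exons have 711 bases, or 237 codons, and no in-frame stop. From the start codon of Mylk4-201 the chain had 624 open codons, against 387 in Mylk4-201 itself, and all 1161 coding bases of Mylk4-201 were read in the same frame. An in-frame ATG further upstream gave a frame of 667 codons, with the same stop. Whether that start is used was not tested.

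**Figure D5:**
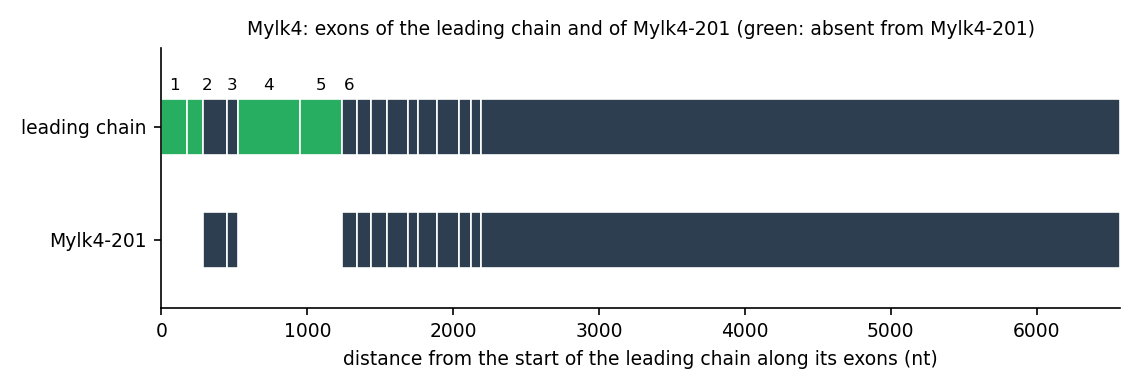
Exons of the leading Mylk4 chain of both libraries (upper row) and of the annotated Mylk4-201 (lower row), drawn to scale along the spliced chain (horizontal axis, nt from its start) with exons 1 to 6 numbered. Dark blocks are shared and green blocks are absent from Mylk4-201: exon 1, the 5′ part of exon 2, and exons 4 and 5 of 421 and 290 bases.

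The first base of the Mylk4 chain lay 10 bases after the RefSeq start of the gene. The 250 bases before the RefSeq start (GRCm38.p6, chr13:32783965-32784214, minus strand) are shown with matches to CANNTG in capitals.
Mylk4 upstream: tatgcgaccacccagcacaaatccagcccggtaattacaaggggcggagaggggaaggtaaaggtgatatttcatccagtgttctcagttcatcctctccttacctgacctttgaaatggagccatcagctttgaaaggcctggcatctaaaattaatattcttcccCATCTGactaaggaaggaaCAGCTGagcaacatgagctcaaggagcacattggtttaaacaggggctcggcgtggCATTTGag
The window held 3 matches, and 12.2% of all windows held 3 or more. It held no match to TATAAA on either strand.

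Single-exon 3′ models made up much of the remaining Mylk4 reads. Genomic single-exon models within the last exon of 4382 bases had 42 reads in replicate 1 and 76 in replicate 2. In Mylk2, single-exon 3′ models had 41 reads in replicate 1 and 19 in replicate 2.

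Genes that act with the members were counted from lists of named genes. Of 5 other genes named for light chains, among them the ligase Mylip, 3 had reads, all 3 were tested and none was called. Myl12a had 321 reads in replicate 1 and 210 in replicate 2, or 287 CPM and 215 CPM, above the 11.6 and 7.17 CPM of its copy Myl12b. Myl7 and Myl10 had 0 reads in both libraries. The symbol Myl11, also listed, is a newer name of Mylpf and matches no gene name in the tables. Of 8 other kinases of the light chain or of the same serine, 4 were tested and none was called. Dapk3, a kinase able to act on this serine without calcium, had 72 reads in replicate 1 and 38 in replicate 2. The smooth muscle kinase Mylk had 4 and 7 reads, and the cardiac kinase Mylk3 had 2 and 0, against 213 and 122 for Mylk2.

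Of 7 light chain phosphatase genes, 5 were tested and 1 was called. Ppp1r14b, an inhibitor of the phosphatase, had 118 reads in replicate 1 and 58 in replicate 2, with a log2 ratio of 0.70 (adjusted p = 0.0241, exact binomial test). The catalytic subunit Ppp1cb had 380 reads in replicate 1 and 368 in replicate 2, while the inhibitor Ppp1r14c had 147 and 150; neither was called. Among genes of calcium binding proteins that act with Mylk2 or in relaxation, Calm2, Calm3 and Pvalb were called higher in replicate 1 by the exact binomial test. It called 4.46% of all genes higher in replicate 1, and 66.1% of those with 1000 or more reads in either direction. Calm3 had 793 reads in replicate 1 and 419 in replicate 2, while Calm2 had 239 and 122. Pvalb, the calcium buffer of fast fibres, had 1948 reads in replicate 1 and 1228 in replicate 2. In the edgeR exact test the calls of Calm2, Calm3, Pvalb and Ppp1r14b were all lost. The leading transcript of Pvalb has 953 nt. Its log2 ratio was 0.35, near the median of 0.36 for genes under 1000 nt, and what length contributed was not tested.

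The heavy chains that bind these light chains were mostly lower in replicate 1. Of 13 myosin heavy chain genes 8 were tested, of which 5 were lower in replicate 1 and none higher, with a median log2 ratio of -1.40. The 5 were Myh4 with 21229 reads in replicate 1 and 29839 in replicate 2, Myh1 with 1520 and 7086, Myh2 with 349 and 1987, Myh7 with 183 and 2330, and Myh14 with 64 and 122. These calls are by the exact binomial test. It called 7.13% of all genes lower in replicate 1, and 66.1% of those with 1000 or more reads in either direction. In the edgeR exact test Myh1, Myh2 and Myh7 were called, whereas Myh4 and Myh14 were not. The 5 sarcomeric light chains gave 0.895 reads per read of all 13 heavy chain genes in replicate 1 and 0.311 in replicate 2. For the fast set alone, Mylpf and Myl1 gave 0.901 reads per read of Myh4, Myh1 and Myh2 in replicate 1 and 0.323 in replicate 2. The slow chains Myl2 and Myl3 gave 0.519 reads per Myh7 read in replicate 1 and 0.135 in replicate 2. Myosin heavy chain transcripts are in the class of 3000 nt or more and those of these light chains under 1000 nt, and ratios fell with length over all genes as given above. What length contributed to the change in these ratios was not tested.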

How the data were processed

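The authors deposited, per the file headers, raw counts of reads per transcript model, 1 table per library, with the number of exons and the length of each model. The models are on mm10 per the labels and were named by TALON per the deposited annotations, and reads of spike-in RNAs were left out here. No source used here names the aligner, the filters or the strand handling. The members, lists and tests were chosen with earlier results of these data known. A gene count was the sum over all models of an annotated gene name. Named were all members, their Known models, their NIC or NNC chains of 5 or more reads, the 3 models with most reads of each, and list genes called or holding 100 reads or more.

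TMM factors and the edgeR exact test came from edgeR 4.0.16 in R 4.3.3, and size factors for an alternative from DESeq2 1.42.0. No quasi-likelihood test was possible with 1 library on each side. Genes with 10 or more reads over both libraries were tested, at an adjusted p under 0.05, and shares needed 20 reads in each library. Models of both libraries were matched by intron chain. An exon was counted in reads spanning it, with both boundaries exact. Sequences and reading frames were read from GENCODE M21 transcripts and RefSeq promoters, and coding identity came from global alignment (Biopython 1.88). Intervals are Wilson or exact at 95% and cover counting error only. Python 3.11.15, numpy 2.4.6, pandas 2.3.3 and scipy 1.17.1 were used. The tests were checked on simulated counts that held counting error only. Without scatter between libraries, that check cannot show how often these data give a false call. An item of the lists is not reported here.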

Additional observations from a re-analysis of the deposited data

Results flagged for a closer look

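Reads outside the member genes lay on the opposite strand of 5 of them, in models without annotation. Myl2 had 0 such reads in replicate 1 and 1 in replicate 2, and Mylpf had 1 and 0, both within the 3 reads that a count of 0 allows. At Mylk4 these opposite-strand models held 8 reads in replicate 1 and 27 in replicate 2. At Mylk2 they held 16 reads in replicate 1 and 8 in replicate 2. At Myl1 they held 5 reads in replicate 1 and 1 in replicate 2. At these last 3 genes the counts exceeded 3 reads in at least 1 library, and all these models but 1 at Mylk2 in replicate 2 had a single exon. No source used here states how strand was assigned, so reads of the gene and of a partner on the other strand cannot be told apart.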

How the results depend on the processing

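No paired analysis was possible because the series has 1 group. Of 192 values recomputed with both libraries, 164 were taken as kept. A value was kept if its direction and call held or it moved by less than the spread. A count of calls was kept if it stayed within a set factor of the main count. Leaving out a library gives the level of the other, as printed for each gene, and tests nothing with 2 libraries. With the edgeR exact test the number of genes called was 24, against 972, and of members 1, against 7; the common dispersion added is the cause by construction. Counting Known reads only, 4 genes were called for the leading isoform share, against 15. Myl4 changed sign with Known reads only (log2 ratio -0.33), where few reads remain, and the 20-base exon of Myl6 with Known, NIC and NNC reads (-0.22 percentage points); neither was called, and the cause was not tested. Mylk2 was not called without a read minimum (adjusted p = 0.0503, exact binomial test), nor Myl6 with Known reads only (0.0521). With Known reads only, Mylk4 had a share of 0 among the kinases, because it has no Known read.

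Scaling by total counts put the median log2 ratio of all genes at 0.11, against -0.01 with TMM, and the share of calls that were higher in replicate 1 at 56.5%, against 38.5%; the 7 calls of members held. Depth limits Myl4, Myl6b and Myl12b, where only folds of several times could be called.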
